A study of Homo sapiens with 6 samples.

Results

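The genes described here control the G1 phase of the cell cycle: the D-type cyclins CCND1, CCND2 and CCND3, their kinase partners CDK4 and CDK6, the CIP/KIP inhibitors CDKN1A (p21) and CDKN1B (p27), and the INK4 inhibitors CDKN2A (p16, with ARF from the same locus), CDKN2B (p15) and CDKN2C (p18). They were listed by name, 10 genes in all, against 31122 rows of the count table and 34977 rows of the FPKM table. Of the 10 genes, 9 had a row in the count table and all 9 passed the filter on low counts, as did 17420 genes in the whole table. CCND2 had no row in the count table used here and was followed in FPKM only.

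In cycling cells, D-type cyclins bind CDK4 or CDK6 and phosphorylate the retinoblastoma protein RB1, which releases E2F transcription factors and opens the way to S phase. INK4 proteins bind CDK4 and CDK6 and keep the cyclin away, while CIP/KIP proteins bind cyclin-CDK complexes and block mainly CDK2. The CDKN2A locus is transcribed from alternative first exons, which give p16 and the unrelated protein ARF. Breast cancers commonly carry extra copies of CCND1, and tumours that have lost RB1 often express high levels of p16.

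RNA was sequenced from MDA-MB-468, an established triple-negative breast cancer line of basal type that is known for loss of RB1 and SMAD4. The group labelled GPR52 KO held 3 populations, described as made with CRISPR-Cas9 and 1 guide RNA, sgRNA1, against the G protein-coupled receptor gene GPR52. How these populations relate to each other, and whether any is a single clone, is not in the labels. The other group, labelled WT, held 3 wells of 1 plate, described as parental cells. Wells of a plate may differ only technically. The p-values reflect the spread among these wells together with that among the 3 populations. Cells with a non-targeting guide were not analysed here, so effects of the label cannot be told apart from those of editing, of selection or of longer culture. All values are from the authors' counts and FPKM, FPKM being scaled to transcript length and library size and CPM (counts scaled to TMM library sizes) to library size only. These are bulk samples, in which fewer cells that express a gene and less RNA per cell cannot be told apart.

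Library totals were 25637794 to 31692454 counts, which made 1 count worth 0.0316 to 0.0390 CPM by raw totals. GPR52 itself had 645, 694 and 724 counts in the libraries labelled GPR52 KO and 9, 1 and 0 counts in those labelled parental, so its transcript went against the label. Below, libraries are named by label alone, as KO-labelled or parental-labelled 1 to 3. RB1 was at 0.602, 0.584 and 0.610 FPKM in KO-labelled libraries and at 0.492, 0.500 and 0.458 FPKM in parental-labelled ones, and SMAD4 at 0.0492 to 0.0746 FPKM and 0.0188 to 0.0613 FPKM. All 5 epithelial markers were above 1 FPKM, and summed to 2931 to 3331 FPKM in KO-labelled and 3281 to 3625 FPKM in parental-labelled libraries. Of 7 basal markers 6 were above 1 FPKM, and SOX10 was at or near 0. Of the other cell types checked, the 6 fibroblast markers summed to 6.23 to 8.66 against 2.72 to 3.98 FPKM, mostly COL1A1. FAP came next, at 0.297 to 1.30 against 1.03 to 1.77 FPKM, and COL1A2, DCN and LUM were at or near 0. The 3 endothelial markers with a row summed to 0.561 to 1.16 against 0.659 to 0.954 FPKM, and 5 leukocyte markers to 1.44 to 2.38 against 14.5 to 20.4 FPKM. CD14 made up nearly all of that last sum, while the defining leukocyte gene PTPRC stayed at or below 0.117 FPKM in every library. The part of these cells or genes in the results was not tested.

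Promoter sequences are shown for CDK4, and for the inhibitors CDKN1A and CDKN2A, which rose in KO-labelled libraries. They run from 250 bases before to 50 after the annotated start, from RefSeq on GRCh38.p14, 5′ to 3′ on the strand of the gene. In the CDK4 promoter (chr12:57752261-57752560, minus strand) the capitals mark the E-box CACGTG, the site bound by MYC and its partner MAX. In the CDKN1A promoter (chr6:36678464-36678763, plus strand) and both CDKN2A promoters they mark the GC box GGGCGG, a site bound by SP1, on the strand shown or as its reverse complement. The first CDKN2A start (chr9:21995275-21995574, minus strand) serves ARF and the second (chr9:21974808-21975107, minus strand) serves p16, and they are set side by side because the deposited values add up transcripts from both.
CDK4: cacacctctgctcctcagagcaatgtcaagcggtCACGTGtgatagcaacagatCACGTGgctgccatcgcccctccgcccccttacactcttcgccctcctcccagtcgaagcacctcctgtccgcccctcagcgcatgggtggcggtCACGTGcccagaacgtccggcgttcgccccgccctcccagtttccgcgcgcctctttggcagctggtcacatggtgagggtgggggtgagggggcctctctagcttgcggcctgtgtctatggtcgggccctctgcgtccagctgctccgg
CDKN1A: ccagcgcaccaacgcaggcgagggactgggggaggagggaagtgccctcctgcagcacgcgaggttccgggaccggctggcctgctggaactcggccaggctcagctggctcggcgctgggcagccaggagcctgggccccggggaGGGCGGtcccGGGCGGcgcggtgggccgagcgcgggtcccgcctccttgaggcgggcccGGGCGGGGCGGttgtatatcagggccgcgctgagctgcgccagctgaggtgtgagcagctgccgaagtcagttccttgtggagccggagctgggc
CDKN2A, ARF start: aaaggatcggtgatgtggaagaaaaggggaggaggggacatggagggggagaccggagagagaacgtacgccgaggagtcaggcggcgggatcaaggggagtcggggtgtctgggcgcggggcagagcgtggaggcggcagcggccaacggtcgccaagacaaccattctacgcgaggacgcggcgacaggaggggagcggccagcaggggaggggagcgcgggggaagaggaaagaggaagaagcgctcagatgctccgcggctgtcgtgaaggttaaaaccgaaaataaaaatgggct
CDKN2A, p16 start: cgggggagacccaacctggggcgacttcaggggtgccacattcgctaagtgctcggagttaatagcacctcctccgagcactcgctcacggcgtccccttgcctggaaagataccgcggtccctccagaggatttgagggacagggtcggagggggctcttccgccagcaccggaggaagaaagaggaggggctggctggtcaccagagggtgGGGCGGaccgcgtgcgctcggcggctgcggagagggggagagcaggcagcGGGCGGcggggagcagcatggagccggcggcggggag

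The CDK4 promoter held 3 E-boxes, a number that 0.0940% of 35116 human promoters of the same length reached or passed, whereas at least 1 was found in 7.26% of them. The CDK4 promoter also held 3 GC boxes, which are not marked above. The CDKN1A promoter held 4 GC boxes, of which the pair nearest the start shares a base. At least 3 GC boxes were found in 15.8% of all promoters. The p16 start held 2 GC boxes and the ARF start 0, where 45.0% of all promoters held at least 1. For CCND3, which has 3 annotated starts, the numbers of GC boxes were 5, 4 and 0. Promoters were found for 8 of the 10 genes, and CCND1 and CCND2 had no entry, so nothing is said of theirs. None of those found held the full cAMP response element TGACGTCA, a site bound by CREB downstream of cAMP, or an E2F site (TTTGGCGC, TTTCCCGC, TTTGCCGC or TTTCGCGC), which 1.85% and 3.31% of all promoters held. A match describes letters only, all motifs were searched on both strands, and no match says only that these letters are not in the window.

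Levels per transcript length were compared first. CDK4 had the highest level of the 10 genes in both groups, with 103 ± 12.0 FPKM in KO-labelled and 84.3 ± 0.709 FPKM in parental-labelled libraries (SD, n = 3 each). CDKN2A was the second in KO-labelled libraries at 63.2 ± 7.27 FPKM and the third in parental-labelled ones at 48.5 ± 5.12 FPKM. CCND1 was the third in KO-labelled libraries at 28.1 ± 6.46 FPKM and the second in parental-labelled ones at 59.2 ± 1.93 FPKM, so CCND1 and CDKN2A stood in opposite order in the groups, without overlap between them in either.

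In KO-labelled libraries CCND3 (27.2 ± 1.49 FPKM) and CDKN1A (22.1 ± 5.83 FPKM) came next, and the neighbours CCND1, CCND3 and CDKN1A overlapped in turn. CDKN1B (14.4 ± 2.89 FPKM), CDKN2C (13.2 ± 5.86 FPKM) and CDKN2B (11.8 ± 0.778 FPKM) also overlapped. In parental-labelled libraries the order ran CCND3 (37.1 ± 3.11 FPKM), CDKN2C (20.3 ± 0.609 FPKM), CDKN1A (13.8 ± 0.616 FPKM), CDKN2B and CDKN1B (10.6 ± 0.155 and 10.6 ± 0.0755 FPKM), and only the last pair overlapped.

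CDK6 lay far below its paralogue CDK4 in every library, at 2.63 ± 0.605 FPKM in KO-labelled and 1.9996 ± 0.538 FPKM in parental-labelled libraries. CCND2 was listed at 0 in the 3 KO-labelled libraries and in parental-labelled 2 and 3, and at 0.000854 FPKM in parental-labelled 1. The plot of FPKM levels shows these orders.

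**Figure D1:**
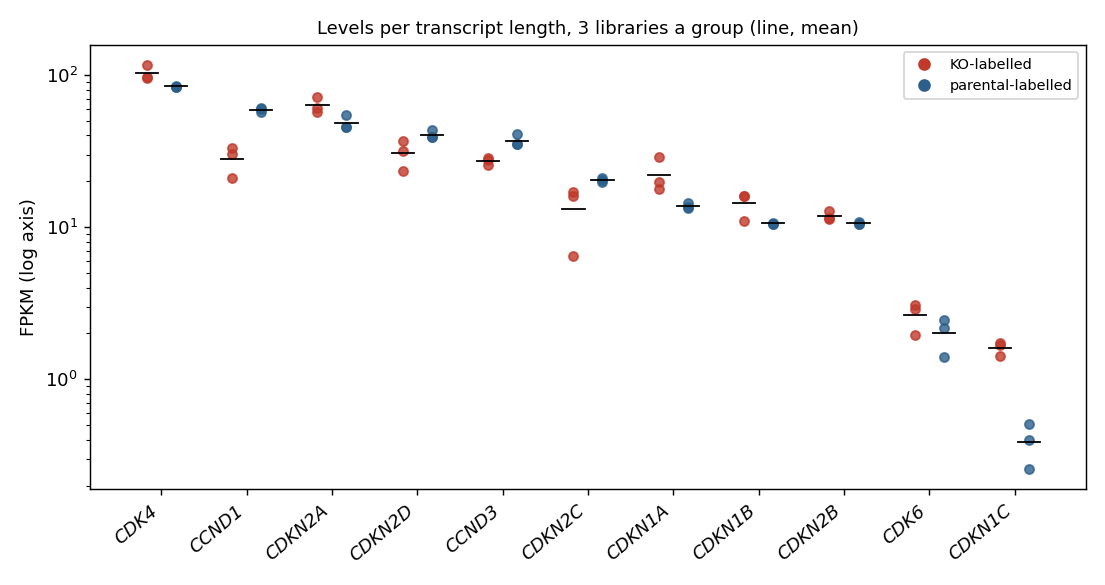
FPKM on a log axis for the 9 measured genes above 0 in every library and for the further inhibitors CDKN2D and CDKN1C, with points for the 3 libraries of each group, KO-labelled left of parental-labelled, and lines for means. CDK4 is highest in both groups, CCND1 lies lower in KO-labelled libraries, and CDK6 and CDKN1C lie below 4 FPKM throughout.

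The G1 genes were compared between the groups labelled GPR52 KO and parental. Because the GPR52 transcript went against these labels, the differences below are not shown to follow loss of GPR52. All directions follow the labels and would reverse if the labels were exchanged, which was not tested. CCND1 and CCND3 fell, CDKN1A and CDKN2A rose, and CDK4, CDK6, CDKN1B, CDKN2B and CDKN2C were not called. The 4 called genes were 44.4% of the 9 tested, and 40.8% of all 17420 genes were called by the same rule, so the share lay near the background. The background was 21% for genes called higher and 19.8% for genes called lower. Calls are adjusted p-values under 0.05 over all tested genes (edgeR quasi-likelihood test, Benjamini-Hochberg). The median log2 fold change of the 9 genes was 0.26, against 0.01 over all tested genes. CPM did not overlap between the groups for 7 of the 9, and for 54.4% of all genes.

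Cyclin D1 had the largest change of the 9 genes. Its mean FPKM was the highest of the D-type cyclins in both groups, but overlapped with CCND3 in KO-labelled libraries. CCND1 had 96.5, 121 and 146 CPM in KO-labelled 1, 2 and 3, against 285, 302 and 292 CPM in parental-labelled 1, 2 and 3. Every KO-labelled library lay below every parental-labelled one, and the KO-labelled ones were spread more widely. The group means were 121 ± 24.6 CPM and 293 ± 8.16 CPM (SD, n = 3 each). CCND1 thus stood at 0.414 times its parental-labelled level, a log2 fold change of -1.27 (SE 0.14; edgeR adjusted p = 0.000243). Its size exceeded that of 91.4% of all tested genes. FPKM showed a smaller difference, with 20.9, 30.1 and 33.3 in KO-labelled and 57.1, 60.9 and 59.4 in parental-labelled libraries. The FPKM obtained per CPM of CCND1 was 0.217, 0.248 and 0.229 in KO-labelled and 0.200, 0.202 and 0.204 in parental-labelled libraries, which do not overlap, so the measures did not scale together between the groups. CCND1 remained called in all 18 alternative settings, with log2 fold changes from -1.45 to -1.07.

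Cyclin D3, which partners the same kinases, had 57.0, 53.6 and 57.2 CPM in KO-labelled libraries, against 75.5, 79.1 and 85.6 CPM in parental-labelled ones. The KO-labelled values lay close together and all below the others. For CCND3 the log2 fold change came to -0.52 (SE 0.08; edgeR adjusted p = 0.00114). The FPKM of the D-type cyclins summed to 55.3 ± 5.84 in KO-labelled and 96.2 ± 3.92 in parental-labelled libraries (SD, n = 3 each). CCND1 stood at 0.734, 1.18 and 1.21 times the FPKM of CCND3 in KO-labelled 1, 2 and 3, and at 1.62, 1.72 and 1.46 times in parental-labelled 1, 2 and 3. Only in KO-labelled 1 did CCND3 exceed CCND1.

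**Figure D2:**
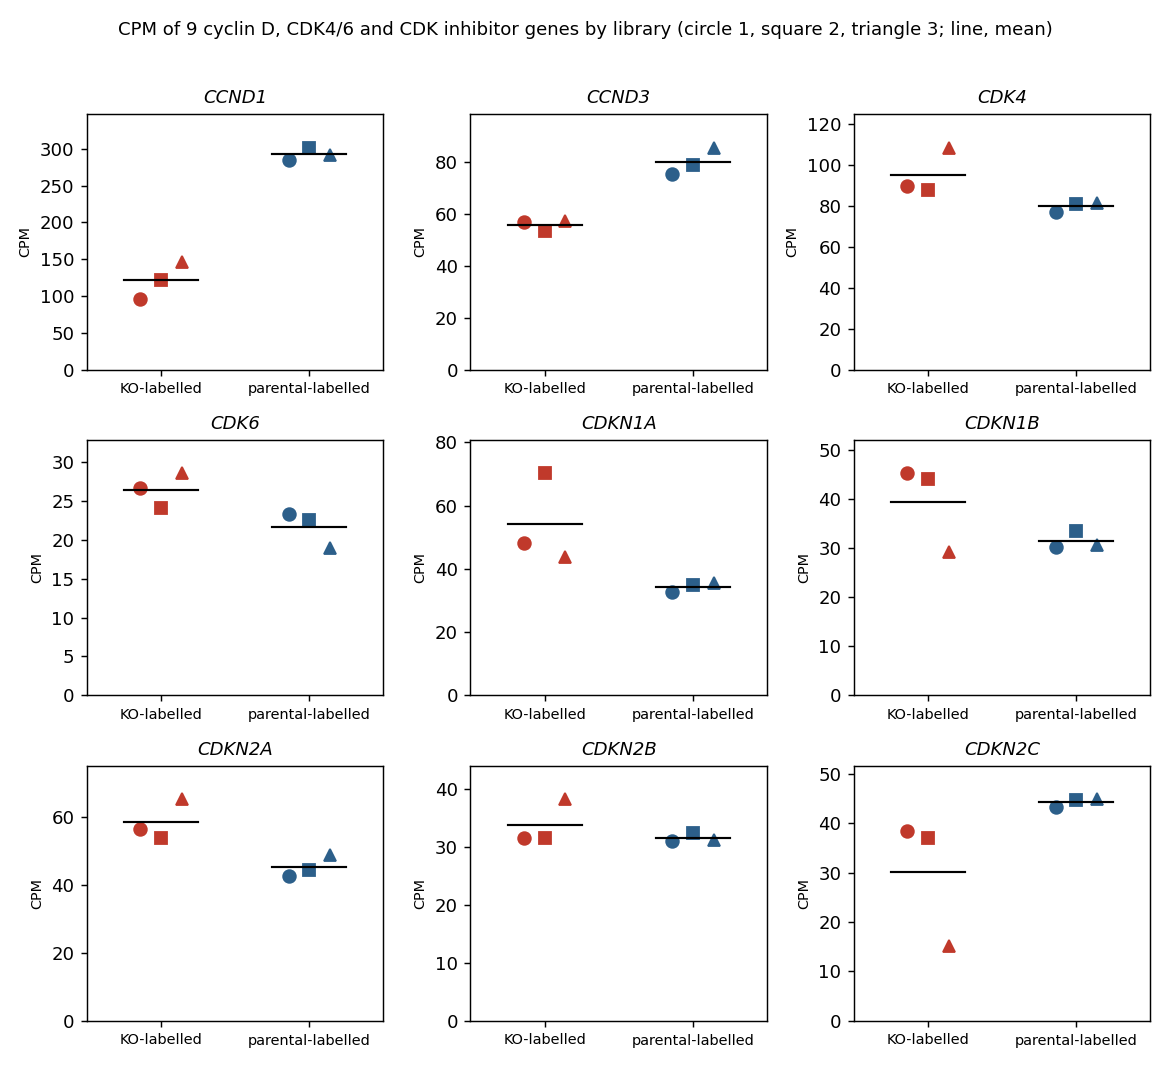
CPM of the 9 genes in each library, 1 panel a gene, with KO-labelled libraries left and parental-labelled right, symbols for libraries 1 to 3 and lines for means; axes start at 0. CCND1 and CCND3 lie lower and CDKN1A and CDKN2A higher in KO-labelled libraries, and KO-labelled 3 lies apart for CDKN2C and CDKN1B.

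The kinase CDK4 had 89.98, 87.7 and 109 CPM in KO-labelled libraries, against 77.1, 81.0 and 81.5 CPM in parental-labelled ones. All KO-labelled values were above the others, with KO-labelled 3 the highest. The log2 fold change of 0.26 (SE 0.09) was not called with TMM (edgeR adjusted p = 0.0580), but was with library totals (0.30, edgeR adjusted p = 0.0309) and with upper quartile scaling (0.29, edgeR adjusted p = 0.0336). Without KO-labelled 2 it was called as well (0.31, edgeR adjusted p = 0.0452), and without KO-labelled 3 it was 0.15 and not called. TSPAN31 overlaps CDK4 on the opposite strand and had 236, 287 and 128 counts in KO-labelled and 94, 76 and 104 in parental-labelled libraries, beside 2388, 2481 and 3042 counts of CDK4 in KO-labelled and 2335, 2039 and 2536 in parental-labelled libraries. MARCH9 also overlaps CDK4 on the opposite strand, with 210, 163 and 154 counts in KO-labelled and 171, 120 and 164 in parental-labelled libraries. Whether the counting used strand is not given in the sources used here, so reads of such pairs cannot be told apart.

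CDK6 had 26.7, 24.0 and 28.6 CPM in KO-labelled libraries, against 23.3, 22.5 and 19.0002 CPM in parental-labelled ones, a gap of less than 1 CPM between the nearest libraries. Under TMM its log2 fold change was 0.29 (SE 0.11; edgeR adjusted p = 0.0679), and it was called with library totals (0.33, edgeR adjusted p = 0.0438) and with upper quartile scaling (0.33, edgeR adjusted p = 0.0461). In FPKM the groups overlapped, with 2.88, 1.94 and 3.07 in KO-labelled and 2.44, 2.16 and 1.40 in parental-labelled libraries. Of the 9 genes CDK6 had the most variable FPKM per CPM, with a coefficient of variation of 15.4% over the 6 libraries.

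The CIP/KIP inhibitor p21 was the member with the largest rise. CDKN1A had 48.1, 70.2 and 43.8 CPM in KO-labelled libraries, against 32.7, 34.9 and 35.5 CPM in parental-labelled ones. KO-labelled 2 was far above the other libraries of its group, and all 3 exceeded the parental-labelled ones. This gave a log2 fold change of 0.65 (SE 0.17), at an edgeR adjusted p of 0.0154, and one of 0.42 without KO-labelled 2. The call was lost without parental-labelled 1, 2 or 3 in turn, with edgeR adjusted p of 0.0625, 0.0507 and 0.0525 at 0.61, 0.66 and 0.67.

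CDKN1B, whose product p27 is controlled largely through its degradation, had 45.2, 44.0 and 29.1 CPM in KO-labelled libraries, against 30.2, 33.3 and 30.6 CPM in parental-labelled ones. KO-labelled 1 and 2 were above and KO-labelled 3 below all parental-labelled libraries, so the groups overlapped in CPM. In FPKM they did not, with 16.0, 16.1 and 11.0 in KO-labelled and 10.7, 10.5 and 10.5 in parental-labelled libraries, KO-labelled 3 then being above them all. With all libraries the log2 fold change of 0.33 (SE 0.16) was not called (edgeR adjusted p = 0.137). Without KO-labelled 3 it was 0.51 (SE 0.07), with an edgeR adjusted p of 3.0e-04.

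CDKN1C (p57), a CIP/KIP gene outside the 10, had 58, 56 and 67 counts in KO-labelled libraries, against 10, 17 and 17 counts in parental-labelled ones. Its level stayed low, at 2.19 ± 0.206 CPM and 0.517 ± 0.175 CPM (SD, n = 3 each), and its log2 fold change was 2.09 (SE 0.25; edgeR adjusted p = 4.7e-04). The summed FPKM of CDKN1A, CDKN1B and CDKN1C was 37.3, 46.3 and 30.7 in KO-labelled and 24.2, 24.6 and 25.4 in parental-labelled libraries, with no overlap.

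Among the INK4 genes, CDKN2A rose. It had 56.5, 53.9 and 65.5 CPM in KO-labelled libraries, against 42.6, 44.6 and 49.0 CPM in parental-labelled ones, all KO-labelled values being higher. Its log2 fold change was 0.37 (SE 0.10), with an edgeR adjusted p of 0.0177. That call was lost without parental-labelled 1 (0.32, edgeR adjusted p = 0.0854) or parental-labelled 2 (0.35, edgeR adjusted p = 0.0756). Without parental-labelled 1 and KO-labelled 3 together the value was 0.24 and not called (edgeR adjusted p = 0.0599). The deposited values do not separate p16 from ARF transcripts, and CDKN2A overlaps CDKN2B-AS1 on the opposite strand, which had 165, 102 and 80 counts in KO-labelled and 131, 101 and 140 in parental-labelled libraries.

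CDKN2B, its neighbour on chromosome 9, had 31.5, 31.6 and 38.3 CPM in KO-labelled libraries, against 31.0, 32.5 and 31.2 CPM in parental-labelled ones, and the groups overlapped in CPM. In FPKM they did not, with 11.5, 11.2 and 12.7 in KO-labelled and 10.5, 10.4 and 10.7 in parental-labelled libraries. Its log2 fold change of 0.10 (SE 0.10) was not called (edgeR adjusted p = 0.447), and it changed sign, to -0.00155, without KO-labelled 3. CDKN2B also overlaps CDKN2B-AS1.

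CDKN2C had the widest spread of the 9 genes in the KO-labelled libraries. It had 38.4, 37.0 and 15.2 CPM in KO-labelled 1, 2 and 3, against 43.2, 44.7 and 44.9 CPM in parental-labelled 1, 2 and 3. KO-labelled 1 and 2 lay just below the parental-labelled libraries, and KO-labelled 3 much lower. The SD of log2 CPM in KO-labelled libraries was 0.75, wider than for 96.6% of tested genes, whose median was 0.19 in KO-labelled and 0.09 in parental-labelled libraries. The log2 fold change was -0.55 (SE 0.29) and not called (edgeR adjusted p = 0.165), although the groups did not overlap. Without KO-labelled 3 it was -0.23 (SE 0.07), smaller in size but called, with an edgeR adjusted p of 0.0144.

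CDKN2D (p19), the remaining INK4 gene and not among the 10, had 37.4, 43.5 and 27.3 CPM in KO-labelled libraries, against 47.1, 48.1 and 52.3 CPM in parental-labelled ones. KO-labelled 3 was again the lowest. The log2 fold change was -0.45 (SE 0.15) at an edgeR adjusted p of 0.0492, and the call was kept in 6 of 18 alternative settings. The 4 INK4 genes together summed to 119 ± 4.36 FPKM in KO-labelled and 120 ± 8.37 FPKM in parental-labelled libraries (SD, n = 3 each), ranges that overlap. Within that sum CDKN2A made up 50.2%, 47.2% and 62.7% in KO-labelled and 39.9%, 39.5% and 42.1% in parental-labelled libraries. INK4 FPKM stood at 2.46, 2.18 and 1.87 times D cyclin FPKM in KO-labelled libraries, against 1.24, 1.19 and 1.29 times in parental-labelled ones, with no overlap. These sums and ratios are descriptions and were not tested. Their CDKN2A part does not separate p16 from transcripts of ARF, which is not an INK4 protein.

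**Figure D3:**
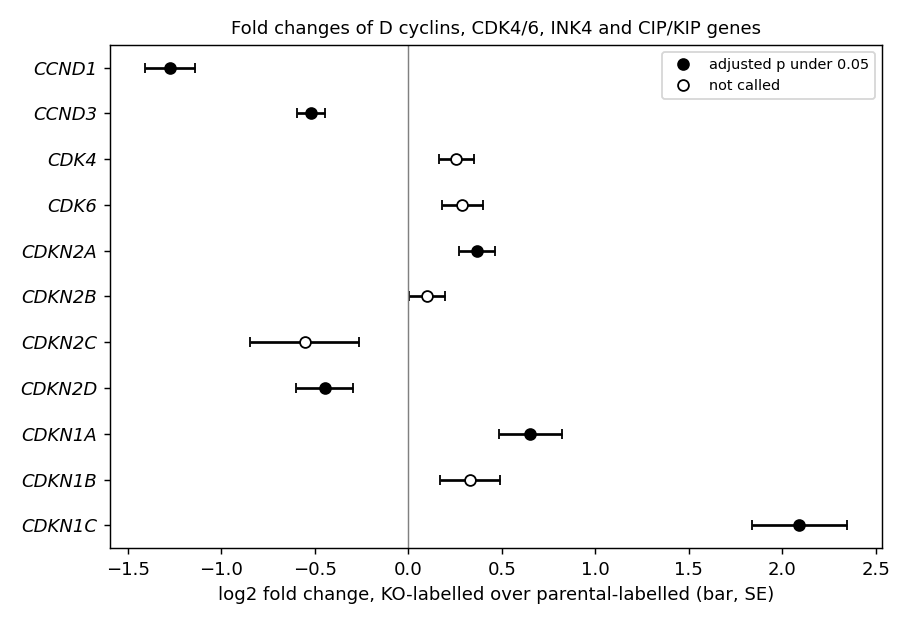
Log2 fold changes of KO-labelled over parental-labelled libraries with their SE (edgeR, 3 libraries a group) for the 9 tested genes and for CDKN2D and CDKN1C; filled points have an adjusted p under 0.05. CCND1 at -1.27 and CCND3 at -0.52 lie on the left, CDKN1A at 0.65 and CDKN1C at 2.09 on the right, and CDKN2C has the widest error.

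KO-labelled 3 stood apart from the rest of its group for CDK4, CDKN1B, CDKN2B and CDKN2C. For others, such as CCND1, CDK6 and CDKN1A, it was only the highest or lowest of 3 libraries. It had the highest CPM of its group for CCND1, CDK4, CDK6, CDKN2A and CDKN2B and for CCND3 by a narrow margin, and the lowest for CDKN1A, CDKN1B, CDKN2C and CDKN2D. Without it 6 of the 9 genes were called, CDKN1A, CDKN1B and CDKN2A higher and CCND1, CCND3 and CDKN2C lower, beside 52.6% of all genes. Against a 1.5-fold change (edgeR glmTreat) CCND1 alone was called, beside 11% of all genes.

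Genes around each member on the chromosome were then looked at, using gene order from GENCODE on GRCh38 for order only, since the files are on hg19. Positions were found for 82.0% of tested genes. The 10 nearest tested genes of CCND1 had a median log2 fold change of -0.12, with 1 called higher and 5 lower, beside 40.8% called of all genes. Next to CCND1, the non-coding gene AP000439.3 had a log2 fold change of -1.33 (SE 0.31), the tumour-amplified gene MYEOV one of -0.70 (SE 0.17) and the chloride channel gene ANO1 one of -0.85 (SE 0.11), while FADD and PPFIA1, beyond ANO1, were at -0.05 (SE 0.08) and -0.03 (SE 0.08). Beyond those, the actin-binding gene CTTN and the scaffold gene SHANK2 were called lower, at -0.19 (SE 0.06) and -0.30 (SE 0.08). Around CDKN2C the median was -0.40, with 1 called higher and 6 lower, beside 21% and 19.8% of all genes called higher and lower. CDKN2C itself lay within 0.16 of that median, but over the 20 nearest genes the median was -0.08. Around CDK4 the median was 0.35, with 4 called higher and 0 lower, beside the same 21% and 19.8% of all genes. These 4 include TSPAN31, which overlaps CDK4. CDKN1A, at 0.65, had neighbours with a median of -0.20, and CDKN2A, at 0.37, neighbours with a median of -0.06. MTAP, beside CDKN2A and CDKN2B, was at -0.17 (SE 0.09) and not called.

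**Figure D4:**
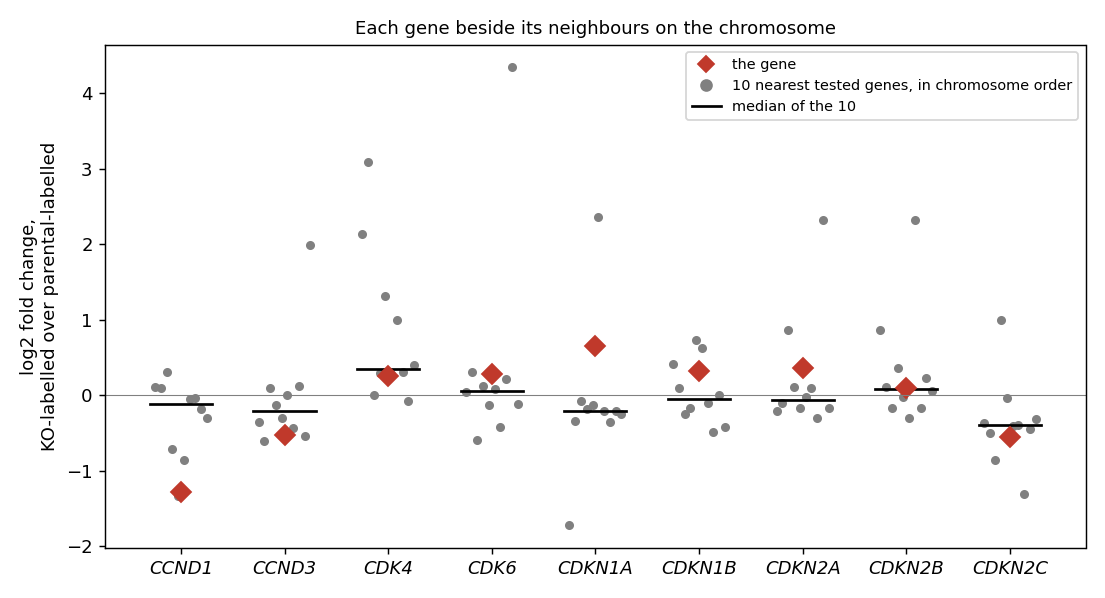
Log2 fold change of each gene (diamond) beside its 10 nearest tested genes in chromosome order (grey points) and their median (line). CCND1 at -1.27 lies below the median of -0.12 and CDKN1A at 0.65 above the median of -0.20, while CDK4 and CDKN2C lie near theirs.

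CCND1 was the called member with the largest change, and its likeness to other genes was measured by the Pearson correlation of log2 CPM over the 6 libraries, as a description. Of 12149 other genes with an average log2 CPM of at least 2, 953 had a correlation above 0.95. The closest were NRP2, a semaphorin and VEGF coreceptor, BRD7, a bromodomain protein, VPS35, a retromer subunit, the non-coding gene RP11-91K9.1 and TMEM156, with correlations of 0.998 to 0.999. NRP2 had 0.904, 2.12 and 3.18 CPM in KO-labelled libraries, against 33.4, 35.4 and 32.2 CPM in parental-labelled ones. All these points share the difference between the groups.

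Next downstream are RB1 and the E2F factors. In that list 2 of 13 tested genes rose, 0 fell and 11 were not called (15.4%, beside 40.8% of all genes), with a median log2 fold change of -0.01. E2F6, a repressive E2F, had 37.7, 36.9 and 33.0 CPM in KO-labelled libraries and 17.7, 18.99 and 17.7 CPM in parental-labelled ones, a log2 fold change of 0.99 (SE 0.09), edgeR adjusted p = 1.1e-04. E2F4, which acts with the pocket proteins in resting cells, had a log2 fold change of 0.20 (SE 0.07), edgeR adjusted p = 0.0448, and its call was kept in 9 of 18 alternative settings. RB1 had 36, 42 and 48 counts in KO-labelled and 35, 33 and 42 counts in parental-labelled libraries, with a log2 fold change of 0.26 (SE 0.19), not called (edgeR adjusted p = 0.313). Without KO-labelled 3, 4 genes of this list were called higher and 2 lower, 46.2% beside 52.6% of all genes. Without KO-labelled 2, or without any 1 of the parental-labelled libraries, E2F6 was the 1 gene called, 7.69% beside 34.5% and 27.3% to 29.6% of all genes.

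In the cyclin E, cyclin A and CDK2 list 0 of 5 tested genes rose, 2 fell and 3 were not called (40%, beside 40.8% of all genes), with a median log2 fold change of -0.07. CCNE1, the cyclin that activates CDK2 at the entry to S phase, had 38.5, 35.5 and 43.0 CPM in KO-labelled libraries and 58.6, 59.5 and 61.4 CPM in parental-labelled ones. Its log2 fold change was -0.62 (SE 0.09) and that of CCNE2 -0.38 (SE 0.11), with edgeR adjusted p of 9.6e-04 and 0.0236. CCNE2 was not called without KO-labelled 2, parental-labelled 1 or parental-labelled 2, which left 1 call in this list, and its call was kept in 11 of 18 alternative settings. CDK2 was not called, at -0.02 (SE 0.08). Of 6 genes that assemble or activate CDKs, 2 rose, 2 fell and 2 were not called (66.7%, beside 40.8% of all genes), with a median of -0.04. That count of 4 was 2 with upper quartile scaling, with library totals, without a filter and without KO-labelled 1 or 2 (beside 37.2% and 34.5% of all genes), and 1 without any 1 of the parental-labelled libraries (27.3% to 29.6%). The chaperone genes HSP90AA1 and CDC37, which help fold CDK4, rose by 0.43 (SE 0.09) and 0.26 (SE 0.08) on the log2 scale, and CDK7 and CCNH, of the CDK-activating kinase, had values of -0.30 (SE 0.10) and -0.23 (SE 0.07). Their adjusted p ran from 0.00788 to 0.0404 in edgeR. The calls of CDK7 and CCNH were kept in 6 of 18 alternative settings each, that of CDC37 in 11 and that of HSP90AA1 in 17.

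Genes that direct the degradation of D cyclins and CDK inhibitors counted 1 higher, 5 lower and 11 not called of 17 tested (35.3%, beside 40.8% of all genes), with a median of -0.15. SKP2, the ubiquitin ligase subunit that targets p27, had 109, 93.8 and 114 CPM in KO-labelled libraries and 62.8, 66.3 and 61.5 CPM in parental-labelled ones, a log2 fold change of 0.73 (SE 0.09). DTL, which directs p21 to degradation in S phase, had one of -0.82 (SE 0.10), FBXW7, which targets cyclin E, one of -0.66 (SE 0.08), and the shared ligase subunit SKP1 one of -0.40 (SE 0.06). Their edgeR adjusted p ran from 4.4e-04 to 0.00131.

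Of 30 tested transcriptional regulators of the 10 genes, 6 rose, 7 fell and 17 were not called (43.3%, beside 40.8% of all genes), with a median of 0.01. FOXO1, a forkhead factor that activates CDKN1B, had 24.6, 23.7 and 29.7 CPM in KO-labelled libraries and 10.9, 10.8 and 10.5 CPM in parental-labelled ones, a log2 fold change of 1.27 (SE 0.11). JUN and STAT3, both activators of CCND1, fell by 0.80 (SE 0.11) and 0.67 (SE 0.10), and ID3, an inhibitor of bHLH factors, by 0.89 (SE 0.12). The edgeR adjusted p of these 4 ran from 9.9e-05 to 0.00102. MYC, which acts through E-boxes such as those of CDK4, had 49.6, 57.5 and 84.7 CPM in KO-labelled and 57.0, 56.3 and 64.5 CPM in parental-labelled libraries, overlapping groups, and was not called at 0.11 (SE 0.18). It was named after its values were seen.

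Replication genes driven by E2F counted 5 higher, 3 lower and 12 not called of 20 tested (40%, beside 40.8% of all genes), with a median of 0.06. Thymidine kinase TK1 had 130, 167 and 171 CPM in KO-labelled libraries and 77.6, 79.4 and 86.7 CPM in parental-labelled ones, a log2 fold change of 0.94 (SE 0.11), and UHRF1, needed to maintain DNA methylation, had one of 0.48 (SE 0.08). The sliding clamp PCNA and the helicase subunit MCM3 fell by 0.52 (SE 0.09) and 0.48 (SE 0.08). Their edgeR adjusted p ran from 4.0e-04 to 0.00337. Without KO-labelled 3, 8 genes of this list were called higher and 6 lower, 70% of those tested beside 52.6% of all genes. Without parental-labelled 1, 2 or 3 in turn, 2 were called higher and 2 lower, 20% of those tested beside 27.7%, 27.3% and 29.6% of all genes.

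**Figure D5:**
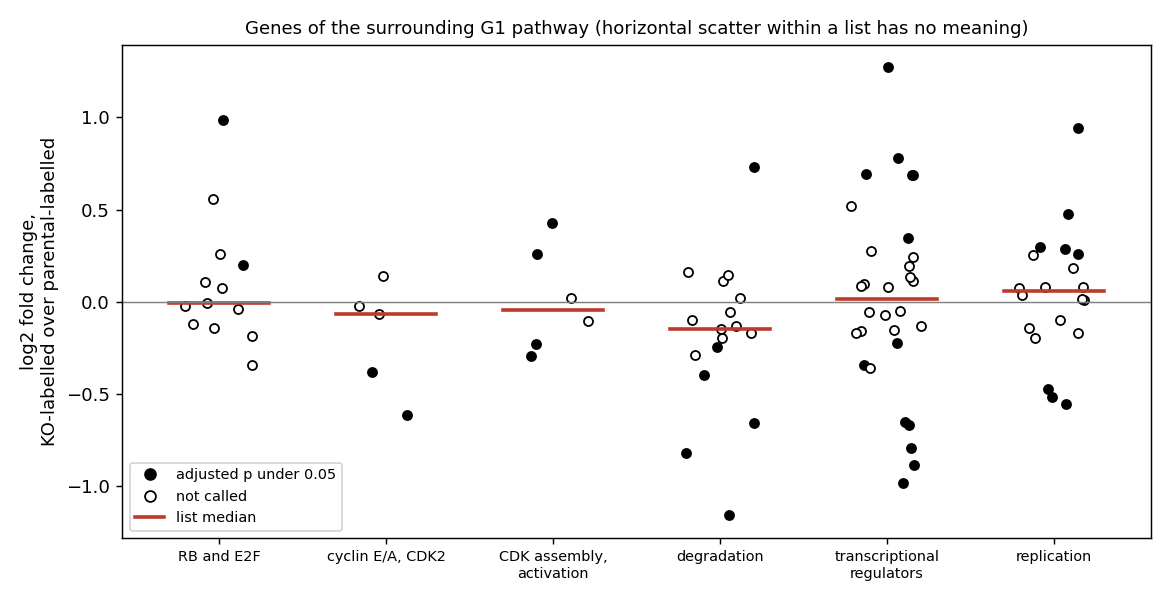
Log2 fold change (KO-labelled over parental-labelled, edgeR) of each tested gene in 6 lists around the G1 genes; filled points have an adjusted p under 0.05, open points were not called, and lines are list medians, which lie between -0.15 and 0.06. The RB and E2F list holds mostly open points, with E2F6 highest at 0.99.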

How the data were processed

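Polyadenylated RNA of 6 cultures was measured. The authors deposited raw counts per gene symbol and FPKM values. Per the submitters' processing notes the build was hg19 and the tools included Cufflinks 2.0.2, STAR 2.4.0f1 and SAMtools 0.1.19, with no roles given. Which annotation, counter and strand setting were used is not given in the sources used here.

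Counts were filtered with filterByExpr (minimum count 10, minimum total 15), normalised by TMM and tested with edgeR 4.0.16 in R 4.3.3 (quasi-likelihood F test, current form, 6 libraries, no covariate). Benjamini-Hochberg adjustment covered 17420 genes, threshold 0.05. The SE is the size of the log2 fold change divided by the square root of F. Tested genes held 99.9% of counts. Log2 CPM used a prior count of 2. Steps were tested on simulated counts. Groups follow the genotype label. KO-labelled numbers follow the order of deposition.

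Named genes are the 10 members, GPR52, up to 4 called genes of each list with the smallest p, RB1 and the 5 closest correlates of CCND1. CDK2, MYC, PTPRC, CD14, SMAD4, other cell type markers and the neighbours were named besides. A further gene and the list built around it are not reported here. Members and lists were chosen with earlier results of these data known. Alternatives were other scalings and filters, DESeq2 1.42.0, limma 3.58.1 (voom, and on log2(FPKM + 1) or log2(FPKM + 0.1) with an FPKM minimum of 1 or none), a 1.5-fold null and left-out libraries.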

Additional observations from a re-analysis of the deposited data

How the results depend on the processing

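No paired analysis was possible because the KO-labelled and parental-labelled samples share no replicate numbers in the labels. CCND1 kept its direction and call in all 18 settings, and CCND3 in all but the test against a 1.5-fold change (-0.52). The number of genes changed was 7105, and 1923 (1019 higher, 904 lower) against a 1.5-fold change, 4507 (1988 lower) with limma on log2(FPKM + 1) without a filter, and 4879 to 9367 with a library left out (2482 to 4730 higher, 2390 to 4637 lower). The number of members called was 4, beside 40.8% of all genes. It was 1 against a 1.5-fold change, beside 11.0% of all genes, and 2 with unfiltered FPKM, beside 12.9%. With a library left out it was 2 to 6, beside 27.3% to 52.6% of all genes. Without parental-labelled 1 and KO-labelled 3 together it was 5, beside 44.7%.

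With a library left out the log2 fold changes ran from 0.15 to 0.31 for CDK4, 0.42 to 0.78 for CDKN1A, 0.22 to 0.51 for CDKN1B, 0.28 to 0.43 for CDKN2A, -0.00155 to 0.15 for CDKN2B and -0.77 to -0.23 for CDKN2C. Without parental-labelled 1 and KO-labelled 3 together they were 0.48 for CDKN1B and -0.25 for CDKN2C, both then called, 0.24 for CDKN2A, then not called, and -0.0155 for CDKN2B, a change of sign. CDK4 was called with upper quartile scaling (0.29), library totals (0.30) and 10 CPM in 3 libraries (0.27), and CDK6 with the first and second of these (0.33 each). CDKN1A and CDKN2A were not called with unfiltered FPKM (0.62 and 0.37) or against a 1.5-fold change (0.65 and 0.37). Upper quartile scaling and library totals moved the median of all genes to 0.05, so the split of 3661 higher and 3444 lower became 4013 and 3113, and 4093 and 3040. Out of their place by group mean in FPKM were 4, 2 and 3 of the 10 members in KO-labelled 1, 2 and 3, 2 each in parental-labelled 1 and 2, and 0 in parental-labelled 3. The cause of these differences was not tested. With 3 libraries a group and a median SD of log2 CPM of 0.19 in KO-labelled libraries, the log2 fold changes of CDK4, CDK6 and CDKN2B had SEs of 0.09 to 0.11, and a missed threshold does not show that these genes did not differ.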
